A study of Capsicum annuum and Capsicum chinense and Capsicum annuum var. glabriusculum with 33 samples.

Results

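Fruit set, the passage from flower to young fruit, was described in the pepper line Zunla 1 (Capsicum annuum, inbred, ZL1 in the library titles) from 4 of the 33 libraries of a poly(A) RNA sequencing survey of pepper organs. The members were chosen by their labels. Closed flower buds and open flowers formed the flower arm, and fruit with a length of 0 to 1 cm and of 1 to 3 cm formed the young fruit arm. Zunla 1 plants were grown in a greenhouse and the later flowers were left to self-pollinate. No treatment or transgene is given for any of the 4 libraries. Each stage was 1 library, so the stages serve as the replicates and every p-value below measures the spread between stages and not between plants. How many plants or organs went into a library is not given in the sources used here. The lengths are those of the sample labels, while the text on the series begins its list of fruit stages at 1 to 3 cm.

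A pepper flower holds sepals, petals, stamens with pollen and a pistil. After pollination the petals and stamens are shed and the ovary wall grows into the fruit wall around the developing seeds. The smallest fruit is green, still divides its cells and is known to enlarge later mostly by cell expansion. All of these tissues are read together in bulk RNA, where fewer cells of a type and less RNA per cell cannot be told apart.

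Values are RPKM, which divides a gene's reads by the length of its model and by the reads of its library. The 4 libraries held 13801704 to 14426161 reads, as recovered from the steps between the values. A gene of 1 kb with 3 reads had 0.208 to 0.217 RPKM, a floor that covers counting error only. Between 18724 and 19179 of the 31426 genes reached 1 RPKM in a library. No names accompany the IDs, so no marker of an organ or cell type could be checked. Genes are described through the organs and stages in which they were high. Libraries of the same arm were more alike than libraries of different arms. Across the 20442 genes tested, log2(RPKM + 1) had a Pearson's r of 0.865 between bud and open flower and of 0.955 between the fruit libraries, against 0.453 to 0.541 between the arms. These values describe the libraries over their genes, and genes are no replicates.

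The comparison of young fruit with flowers asks which genes change as a flower becomes a fruit. Genes of the flowers fell steeply, many of them from high levels to 0. With RPKM as deposited, the rises were more numerous and smaller than the falls. With limma on log2(RPKM + 1), 7161 of 20442 genes (35.0%) passed a Benjamini-Hochberg adjusted p of 0.05. Of these, 5064 (24.8% of the genes tested) were higher and 2097 (10.3%) lower in young fruit. The median size of the change on the log2(RPKM + 1) scale was 1.76 among the rises and 3.23 among the falls. A change of 16-fold or more was found in 826 falls (39.4%) and 116 rises (2.29%). Of the falls, 1103 (52.6%) were under 1 RPKM in both young fruit libraries. Of the rises, 731 (14.4%) were under 1 RPKM in both flower libraries.

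The balance of rises and falls depended on how the libraries were scaled. The median log2 change over all genes tested was 0.69, and median-of-ratios scaling of the 4 libraries moved it to -0.03, a shift of 0.72. With that scaling 913 genes rose (4.49% of 20342 tested) and 2503 fell (12.3%), so the share of rises among the called genes went from 70.7% to 26.7%. All 913 rises were among the 5064, and 2049 of the falls were among the 2097. No rise of the deposited scale fell after scaling. The median size of the change after scaling was 2.74 among the rises and 2.67 among the falls, so by the median the rises were no longer smaller. A change of 16-fold or more was then found in 100 rises (11.0%) and 819 falls (32.7%). Many of the statements on rises below therefore give the scaled count as well, and the others hold for the deposited scale only.

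The count also rested on single libraries. Leaving out fruit of 1 to 3 cm or fruit of 0 to 1 cm and keeping the genes tested left 0 calls by limma, with 5324 and 4929 genes at an unadjusted p under 0.05. The fit then takes its spread from bud and open flower alone. Leaving out the bud left 2047 genes and leaving out the open flower 5655. With the spread taken from 9 Zunla 1 libraries in 4 groups of stages, 8864 genes passed, and 4286 to 8021 passed when 1 of the 4 libraries was left out of that fit.

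**Figure D1:**
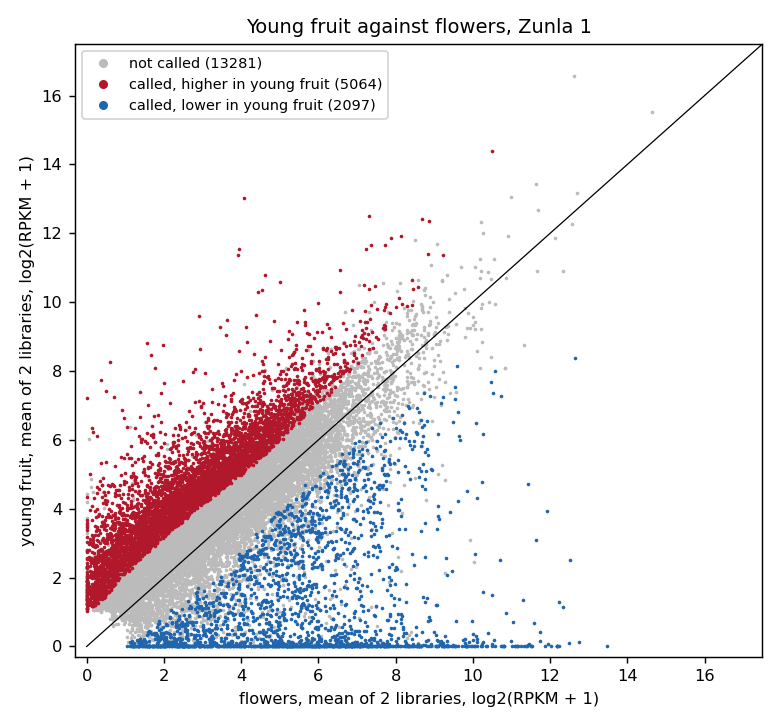
Mean log2(RPKM + 1) of the flower libraries (x axis) and of the young fruit libraries (y axis) for the 20442 genes tested, 1 point per gene, with the line of equal values. The 5064 called rises lie in a band above the line, and many of the 2097 called falls lie along the bottom at or near 0 in young fruit.

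Without regard to the test, both young fruit libraries lay above both flower libraries in 11471 genes (56.1% of those tested) and below them in 3861 (18.9%). After scaling these counts were 6487 and 7135. A gap of at least 4-fold between the nearest libraries of the arms was found in 847 genes that were higher and 1312 that were lower in young fruit, and in 283 and 1754 after scaling. An exact permutation test of 2 against 2 libraries cannot go below p = 0.333, so single genes were tested only through the fit across all genes.

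The largest rise was that of Capana03g002560. It was at 7.51 RPKM in the bud and 24.0 RPKM in the open flower, and at 4994 RPKM in fruit of 0 to 1 cm and 11595 RPKM in fruit of 1 to 3 cm. The means were 15.7 ± 11.6 RPKM in flowers and 8294 ± 4668 RPKM in young fruit (SD, n = 2 each), and the arms did not overlap. Its log2 fold change was 9.03 (SE 0.730, limma adjusted p = 0.00376, and 0.000202 to 0.0731 over the alternatives). The gene stayed high in expanding fruit, with 3473 RPKM at 3 to 4 cm and 7544 RPKM at 4 to 5 cm, and was at 395 RPKM in mature green fruit. It was at 13.5 RPKM in fruit 7 days past breaker, the stage at which the colour turns. Outside the fruit it was highest in root, at 86.6 RPKM. Breaker fruit of chiltepin, a wild pepper, held 3572 RPKM against 29.6 RPKM in chiltepin flowers.

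The second largest rise, Capana07g002102, was listed at 0 in the bud, at 1.02 RPKM in the open flower, and at 252 and 355 RPKM in the smaller and the larger young fruit. Its log2 fold change was 7.72 (SE 0.460, limma adjusted p = 0.00170, and 8.29e-05 to 0.0717 over the alternatives). It was also read in root (29.0 RPKM) and stem (38.8 RPKM), and was listed at 0 in leaf.

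The largest fall was that of Capana04g001678, with 11513 RPKM in the bud and 11225 RPKM in the open flower, and listed at 0 in both young fruit libraries. Among all genes it was the second most abundant of the bud and of the open flower. It was also listed at 0 in fruit of 3 to 5 cm and at mature green. In chiltepin it was at 8816 RPKM in flowers, 28.9 RPKM in breaker fruit and 12.7 RPKM in leaf. The limma adjusted p of the fall was 0.000500 (6.77e-07 to 0.0554 over the alternatives).

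Capana08g000016 was at 6966 RPKM in the bud and 6762 RPKM in the open flower, was listed at 0 in fruit of 0 to 1 cm and was at 0.172 RPKM in fruit of 1 to 3 cm. Its log2 fold change was -12.63 (SE 0.283, limma adjusted p = 0.000500, and 6.15e-07 to 0.0554 over the alternatives). The flower libraries differed by much less than the arms in both of these genes. For all 4 genes the alternatives that lost the call were those that left out a library.

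**Figure D2:**
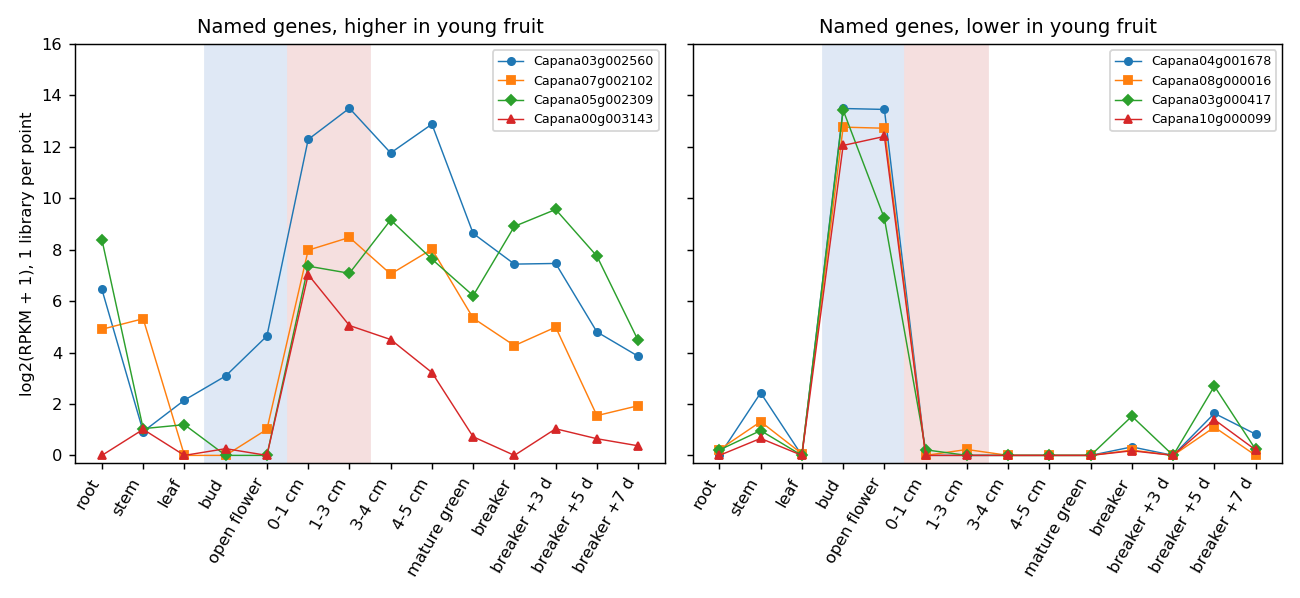
Log2(RPKM + 1) of 8 named genes (y axis) in the 14 Zunla 1 libraries (x axis), 1 library per point, with the flower arm on blue and the young fruit arm on red. The genes on the left are higher in both young fruit libraries than in both flower libraries and part ways later, from Capana00g003143 at 0.652 RPKM in mature green fruit to Capana05g002309 at 756 RPKM 3 days past breaker, and those on the right are high in flowers and at or near 0 in the fruit libraries up to mature green.

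Many genes were on in flowers and off in young fruit, and very few were on in young fruit and off in flowers. There were 565 genes at 10 RPKM or more in both flower libraries and under 0.5 RPKM in both young fruit libraries, and 17 genes with the reverse pattern. Of the 565, 287 had a flower mean of 100 RPKM or more and 52 of 1000 RPKM or more. Of the 17, 1 reached 100 RPKM and 0 reached 1000 RPKM in young fruit. In both young fruit libraries 339 of the 565 were listed at 0. The number of flower genes stayed within 1.5 times of this under other limits and scaling, whereas the number of young fruit genes ranged from 6 with an upper limit of 0.2 RPKM to 54 with a lower limit of 5 RPKM.

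Together the 565 genes made up 22.1% of the summed RPKM of the bud and 24.7% of that of the open flower. In fruit of 0 to 1 cm they held 0.00261% and in fruit of 1 to 3 cm 0.00302%. RPKM is relative to the library's total, so the value of a gene depends on the others. When the libraries were instead scaled to the total of all other genes, 1580 genes rose and 2263 fell, and the median log2 change was 0.23. That scaling was chosen after the data were seen.

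Most of these genes were quiet in the rest of the plant. In 326 of the 565 (57.7%) all 10 other Zunla 1 libraries were under 0.5 RPKM, against 2.70% of all genes tested. At least 1 RPKM in root, stem or leaf was found in 92 of them (16.3%), against 93.5% of all genes tested. In mature green fruit of the 8 other C. annuum lines, 466 of the 565 were under 1 RPKM in every line, against 1111 of the 20442 genes tested. The 565 were chosen as under 0.5 RPKM in both young fruit libraries, so these differences from all genes are in part built in. How much of them is built in was not tested.

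Chiltepin flowers, a mix of buds and open flowers that took no part in choosing the genes, held most of the same genes at 10 RPKM or more. There 468 of the 565 (82.8%) were at 10 RPKM or more, against 49.9% of all genes tested, and all 52 of the most abundant ones were. The 565 were chosen as high in Zunla 1 flowers, with medians of 93.9 and 93.4 RPKM in bud and open flower. All genes tested had medians of 8.73 and 8.60 RPKM there. They are thus no background of like level, for this share or the next. In 254 of the 565 (45.0%) chiltepin flowers were at 10 RPKM or more while chiltepin leaf and breaker fruit were both under 0.5 RPKM, against 1.59% of all genes tested. Their median was 34.9 RPKM in chiltepin flowers, 0.277 RPKM in chiltepin breaker fruit and 0.181 RPKM in chiltepin leaf. The 565 genes made up 11.2% of the summed RPKM of chiltepin flowers and 0.0701% of that of chiltepin breaker fruit.

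**Figure D3:**
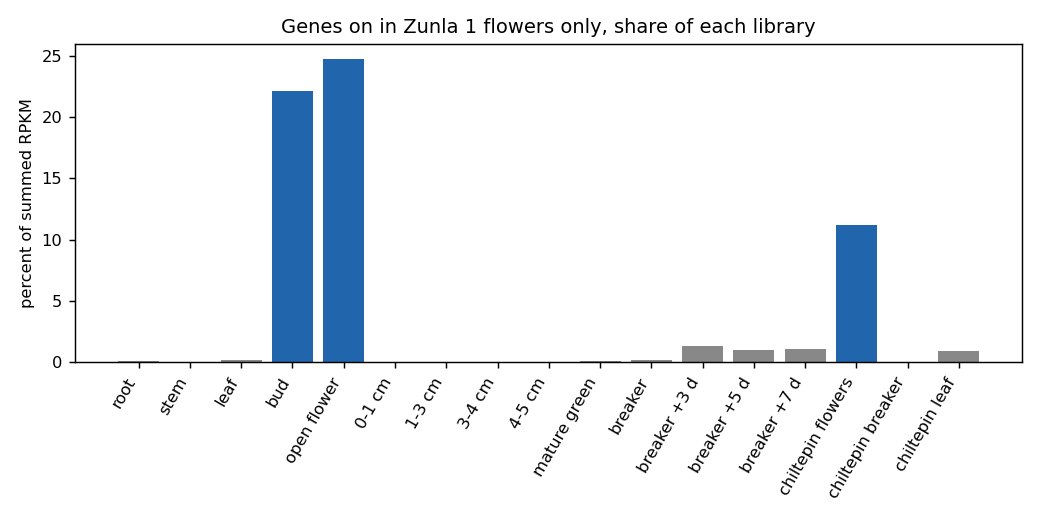
Share of the summed RPKM of each library (y axis, percent) held by the 565 genes that were on in Zunla 1 flowers and off in young fruit, for 14 Zunla 1 and 3 chiltepin libraries (x axis), with flower libraries in blue. The share was 22.1% in bud, 24.7% in open flower and 11.2% in chiltepin flowers, and 1.34% or less in each of the others.

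Beside the largest falls, the flower gene with the highest mean was Capana03g000417, at 11012 RPKM in the bud, 593 RPKM in the open flower, 0.162 RPKM in fruit of 0 to 1 cm and listed at 0 in fruit of 1 to 3 cm. It was much lower in the open flower than in the bud, and still fell (limma adjusted p = 0.0110, and 0.000521 to 0.126 over the alternatives). The next, Capana10g000099, was steady within the arm, at 4251 RPKM in the bud and 5421 RPKM in the open flower, and was listed at 0 in both young fruit libraries (limma adjusted p = 0.000500, and 8.18e-07 to 0.0554 over the alternatives).

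Among the 17 genes of young fruit, Capana05g002309 had the highest mean. It was listed at 0 in both flower libraries and was at 163 RPKM in fruit of 0 to 1 cm and 134 RPKM in fruit of 1 to 3 cm (limma adjusted p = 0.000781, and 0.000183 to 0.0608 over the alternatives). It was not a gene of young fruit alone, since root held 334 RPKM and fruit 3 days after breaker 756 RPKM. Capana00g003143 was at 0.199 RPKM in the bud, listed at 0 in the open flower, and at 130 RPKM and 32.2 RPKM in the smaller and the larger young fruit (limma adjusted p = 0.0105, and 0.000436 to 0.0803 over the alternatives). In Zunla 1 its level was lower at each larger size, with 21.7 RPKM at 3 to 4 cm and 8.34 RPKM at 4 to 5 cm. It was at 1.02 RPKM in stem and listed at 0 in root and leaf. Chiltepin breaker fruit held 138 RPKM of it, against 6.08 RPKM in chiltepin flowers. In mature green fruit of the 8 other C. annuum lines it ranged from 0.0321 to 71.4 RPKM. Its call was lost when any 1 of the 4 libraries was left out and the genes tested were kept (limma adjusted p = 0.0593 to 0.0803). With the spread from 9 libraries it was kept without each of them (limma adjusted p = 0.000436 to 0.00777). Of the 17 genes, 14 (82.4%) reached 1 RPKM in root, stem or leaf, against 93.5% of all genes tested. In both expanding fruit libraries 13 of the 17 were at 1 RPKM or more, against 17515 of the 20442 genes tested.

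The most abundant transcript of young fruit was that of Capana07g000107, a gene picked after its values were seen. It was at 5110 RPKM in the bud, 7564 RPKM in the open flower, 119064 RPKM in fruit of 0 to 1 cm and 76175 RPKM in fruit of 1 to 3 cm, which is 11.2% and 7.28% of the summed RPKM of the fruit libraries. The arms did not overlap, but at a log2 fold change of 3.94 (SE 1.995) the gene did not pass the test (limma adjusted p = 0.176, and 0.00438 to 0.585 over the alternatives). It passed without the trend term and with the spread from 9 libraries. In Zunla 1 it was at 11793 and 13334 RPKM in fruit of 3 to 4 and 4 to 5 cm, at 38.3 RPKM at mature green, and at 10517 RPKM in leaf. In mature green fruit of the 8 other C. annuum lines it ranged from 1.20 to 57293 RPKM. Chiltepin breaker fruit held 6132 RPKM, against 6361 RPKM in chiltepin flowers.

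The rises were also read outside the fruit. Of the 5064 rises, 4918 (97.1%) reached 1 RPKM in root, stem or leaf, and of the 913 rises after scaling 862 (94.4%) did, which is near the 93.5% of all genes tested. The median of the 5064 was 4.34 RPKM in the bud, 5.18 RPKM in the open flower, and 22.8 and 21.6 RPKM in the young fruit libraries. In leaf it was 15.1 RPKM, in stem 13.9 RPKM and in root 11.2 RPKM. Over all genes tested the medians were 8.73 and 8.60 RPKM in the flower libraries, 12.5 and 12.7 RPKM in young fruit and 12.2 RPKM in leaf. Leaf was at least 2-fold above both flower libraries in 2810 rises (55.5%), stem in 2614 (51.6%) and root in 2092 (41.3%). Over all genes tested these shares were 27.1%, 24.1% and 21.2%. Low values in the same flower libraries helped to choose the rises, so shares above those of all genes are in part built in. How much of the excess is built in was not tested.

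Among the 14 Zunla 1 libraries, young fruit held the highest value of 2016 rises (39.8%, against 18.3% of all genes tested), and of 511 of the 913 rises after scaling (56.0%). Root, stem or leaf held the highest value of 1350 rises (26.7%, against 33.2% of all genes tested), and ripening fruit of 814 (16.1%, against 17.4%). Both shares lay below those of all genes. Of the 913 rises after scaling these counts were 145 (15.9%) and 102 (11.2%). For the falls, flowers held the highest value in 1631 of 2097 genes (77.8%, against 17.2% of all genes tested), and root, stem or leaf in 257 (12.3%). Flowers against young fruit chose these genes, so the share in these arms is a description of the lists.

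**Figure D4:**
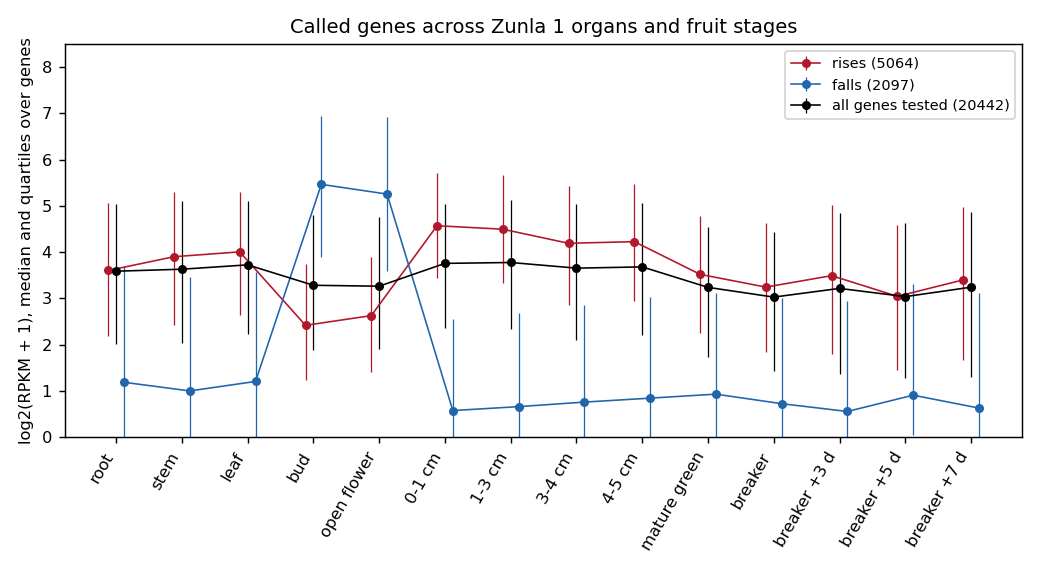
Median and quartiles over genes of log2(RPKM + 1) (y axis) for the 5064 rises, the 2097 falls and all 20442 genes tested in the 14 Zunla 1 libraries (x axis). The falls were high in bud and open flower, and the medians of the rises in the fruit stages were highest in the young fruit libraries.

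From mature green on, fewer of the rises were well above the flowers than at 3 to 5 cm. The same held for all genes tested. In fruit of 3 to 4 cm 3409 rises (67.3%) were still at least 2-fold above both flower libraries, and at 4 to 5 cm 3576 (70.6%), against 25.8% and 25.04% of all genes tested. In mature green fruit 1619 (32.0%) were, in breaker fruit 1225 (24.2%) and 7 days later 2013 (39.8%), against 12.4%, 9.96% and 19.9% of all genes tested. Of the 913 rises after scaling, 807 (88.4%) were that far above the flowers at 4 to 5 cm, 503 (55.1%) in mature green fruit and 345 (37.8%) 7 days past breaker. These shares use the same flower libraries as the comparison itself, and the libraries were not rescaled for them.

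The falls mostly stayed low in the fruit. Between 75 and 93 of the 2097 falls (3.58% and 4.43%) were at least 4-fold above both young fruit libraries in fruit of 3 to 5 cm, and 252 (12.0%) at 5 days after breaker, the highest count of the fruit stages. Over all genes tested these shares were 1.13% to 1.22% and 3.39%. In root, stem and leaf 274, 218 and 256 falls (13.1%, 10.4% and 12.2%) were that far above young fruit, against 4.51%, 3.40% and 4.04% of all genes tested. Low values in young fruit chose the falls, so shares above those of all genes are in part built in. The median of the falls was 43.2 RPKM in the bud and 37.2 RPKM in the open flower, and between 0.468 and 0.904 RPKM in the 9 fruit libraries.

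Genes were also grouped by libraries that took no part in the comparison, and the calls were counted in each class. A class of flower genes was taken from chiltepin, with 5 RPKM or more in its flowers and at least 4-fold more than in its leaf and breaker fruit. Of its 1246 genes 1176 passed the filter on low values, 671 of them only through the Zunla 1 flowers. In this class 934 genes fell and 6 rose, and after scaling 949 fell and 0 rose by limma, in a fit that gave 7352 genes of all classes an unadjusted p under 0.05. Genes under 1 RPKM in root, stem and leaf of Zunla 1 numbered 9651, of which 1333 passed the filter. Among them 801 fell and 146 rose, and 833 of the 1333 had passed only through the flowers, 748 of the falls among them. Of the 934 falls of the chiltepin class 624 had passed only through the flowers. A gene that passes through 1 arm only has to differ between the arms, so these counts are no measure of how often such genes differ.

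Classes were also made from later fruit. An expanding class held 1680 genes whose mean in fruit of 3 to 5 cm was 5 RPKM or more and at least 4-fold above that at 3, 5 and 7 days after breaker. Of 1573 that passed the filter, 624 (39.7%) rose and 77 (4.90%) fell, where all genes tested gave 24.8% and 10.3%. After scaling 254 of 1569 (16.2%) rose and 109 (6.95%) fell, where all genes gave 4.49% and 12.3%. Their median level was 9.40 and 9.34 RPKM in the bud and the open flower and 25.6 and 28.7 RPKM in the young fruit libraries.

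The reverse class, with ripening fruit at least 4-fold above expanding fruit, held 872 genes, of which 631 passed. Of these 52 (8.24%) rose and 182 (28.8%) fell, and after scaling 24 (3.81%) rose and 199 (31.6%) fell. In the ripening class 107 genes had passed only through the flowers and 17 only through young fruit, and 77 of the 182 falls and 8 of the 52 rises were among these. Their median level was 7.97 and 12.1 RPKM in the bud and the open flower and 4.36 and 4.21 RPKM in the young fruit libraries. In the expanding class 21 genes had passed only through the flowers and 77 only through young fruit, and 15 of the 77 falls and 55 of the 624 rises were among these.

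Organ classes of the vegetative plant, at 5 RPKM or more in 1 organ and at least 4-fold above each of the other 2, held both rises and falls. Of 338 leaf genes 262 passed, of which 47 (17.9%) rose and 43 (16.4%) fell, and after scaling 20 (7.66%) rose and 47 (18.0%) fell. Of 1007 root genes 544 passed, of which 118 (21.7%) rose and 104 (19.1%) fell, and after scaling 50 (9.31%) rose and 113 (21.0%) fell. Of 172 stem genes 146 passed, of which 36 (24.7%) rose and 24 (16.4%) fell, and after scaling 18 (12.3%) rose and 27 (18.5%) fell. All genes tested gave 24.8% and 10.3%, and 4.49% and 12.3% after scaling. Of the falls 20 of leaf, 49 of root and 7 of stem had passed the filter only through the flowers, and of the rises 11, 47 and 9 only through young fruit. In all 3 classes the larger count was that of the rises on the deposited scale and that of the falls after scaling. Counts of these classes are therefore given for both scales.

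**Figure D5:**
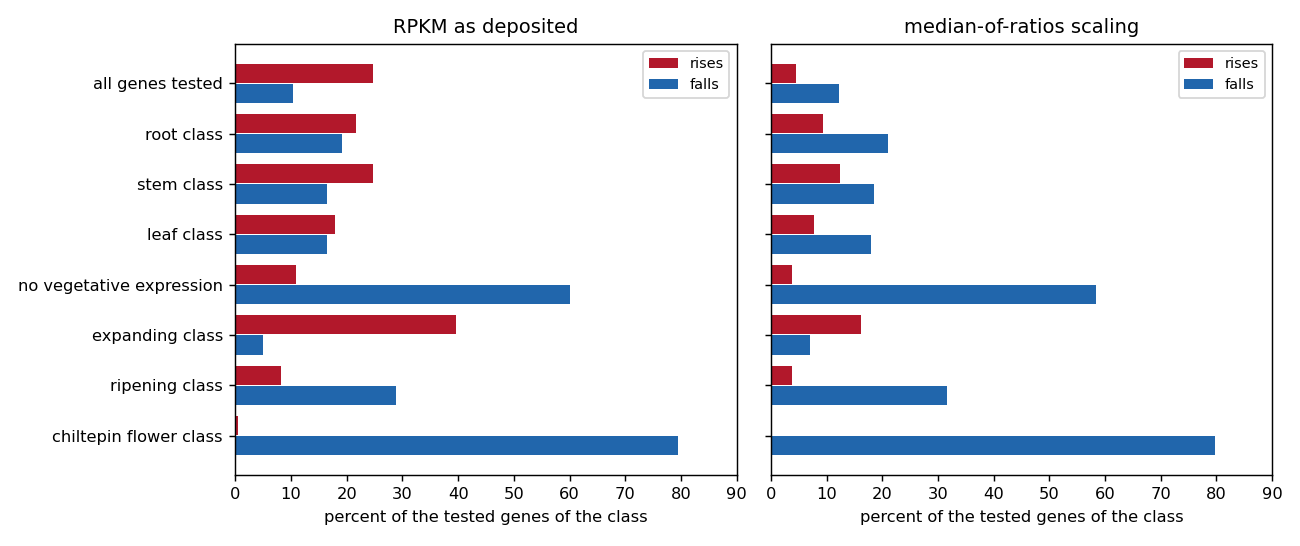
Percent of the tested genes of each class that rose or fell in young fruit against flowers (x axis) for 7 classes made from other libraries and for all genes tested (y axis), with RPKM as deposited on the left and after median-of-ratios scaling on the right. The expanding class shows 39.7% rises and 4.90% falls as deposited and 16.2% and 6.95% after scaling, while the bars of falls for the chiltepin flower class and the class with no vegetative expression include 624 and 748 genes that passed the filter only through the flowers, and are no measure of how often such genes fell.

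Chiltepin gave a second, unreplicated contrast of fruit with flowers, though its fruit was at breaker and not young. Breaker fruit was above flowers there for 4199 of the 5064 rises (82.9%), against 59.1% of all genes tested, and flowers were above fruit for 1940 of the 2097 falls (92.5%), against 40.0%. With calls made after scaling these shares were 90.0% and 89.7%. A difference of at least 4-fold in the same direction was found for 410 rises (8.10%, against 3.50% of all genes tested) and for 1147 falls (54.7%, against 7.79%). With calls made after scaling it was found for 210 rises (23.0%) and 1164 falls (46.5%). The chiltepin libraries share no sample with those of Zunla 1, but each was 1 library and the difference was not tested.

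Within the flower arm, the bud and the open flower differed more than the fruit libraries did. Of the genes tested, 669 (3.27%) were at least 4-fold higher in the bud and 617 (3.02%) in the open flower, while 103 (0.504%) were at least 4-fold higher in fruit of 0 to 1 cm and 161 (0.788%) in fruit of 1 to 3 cm. With 1 library per stage none of these differences has a replicate check. Among the genes higher in the bud 99 were falls (14.8%) and 10 were rises (1.49%), and among those higher in the open flower 45 were falls (7.29%) and 31 were rises (5.02%), where all genes tested gave 10.3% and 24.8%. A gene that differs within an arm has a large spread in the test, so these shares are given as a description only.

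The genes higher in the open flower were also read in the vegetative organs. Their medians were 25.3, 23.8 and 20.5 RPKM in leaf, stem and root, against 3.46 RPKM in the bud, 30.9 RPKM in the open flower and 8.76 and 11.6 RPKM in young fruit. The genes higher in the bud had medians of 36.4 RPKM in the bud, 4.05 RPKM in the open flower, 5.27 RPKM in fruit of 0 to 1 cm and 3.22 RPKM in leaf. The median of young fruit lay near that of the open flower for the genes higher in the bud, and between bud and open flower for the others.

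Capana06g000289 had the largest excess in the bud, at 3558 RPKM against 5.11 RPKM in the open flower, and was listed at 0 in both young fruit libraries. Capana08g002091 followed, with 1021 RPKM in the bud, 3.46 RPKM in the open flower and 0 listed in young fruit. Chiltepin flowers, which include buds, held 1214 RPKM and 118 RPKM of these genes. In the other direction Capana02g001423 was at 3.72 RPKM in the bud, 674 RPKM in the open flower and 0.389 and 0.291 RPKM in the smaller and the larger young fruit, with 431 RPKM in root. Capana12g002671 was at 4.19 RPKM in the bud, 559 RPKM in the open flower, and 6.08 and 1.05 RPKM in young fruit, with 116 RPKM in stem. None of these 4 genes passed the test of young fruit against flowers, at limma adjusted p of 0.120, 0.123, 0.131 and 0.238 in this order and 9.30e-07 to 0.760 over the alternatives.

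Between the young fruit stages, the genes that were higher at 1 to 3 cm were also read in leaf. The 161 genes had medians of 2.55 RPKM at 0 to 1 cm, 26.1 RPKM at 1 to 3 cm, 17.4 RPKM at 3 to 4 cm and 27.9 RPKM in leaf. The 103 genes higher at 0 to 1 cm had medians of 19.2 RPKM at that size, 1.93 RPKM at 1 to 3 cm, 0.636 RPKM at 3 to 4 cm and 7.72 RPKM in the open flower. In both sets the value at 3 to 4 cm lay nearer to that at 1 to 3 cm than to that at 0 to 1 cm.

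Capana02g001798 led the first set, with 0.388 RPKM at 0 to 1 cm, 153 RPKM at 1 to 3 cm and 240 RPKM in leaf, while the flower libraries held 3.34 and 6.59 RPKM. Capana02g002921 was at 3.09 RPKM at 0 to 1 cm and 382 RPKM at 1 to 3 cm, of which the larger value lay inside the range of the flower arm, with 25.7 RPKM in the bud and 412 RPKM in the open flower. Capana11g000057 led the second set, with 88.6 RPKM at 0 to 1 cm and 1.83 RPKM at 1 to 3 cm, against 28.5 RPKM in the bud and 382 RPKM in the open flower. Capana06g002968 was at 175 RPKM at 0 to 1 cm, 6.18 RPKM at 1 to 3 cm, 4.84 RPKM in the bud and 9.76 RPKM in the open flower. The young fruit value of each of these genes rests on which of the stages is taken, and none passed the test against flowers (limma adjusted p = 0.313 to 0.679, and 0.0104 to 0.974 over the alternatives).

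Flower genes often had neighbouring ID numbers. Of the 565 genes, 72 (12.7%) had a gene of the same set 1 number above or below, against 2.74% of the other genes tested. They formed 35 runs of at least 2 consecutive numbers, of which 2 had 3 members. Among all falls 18.9% had a neighbouring fall, against 10.3% of the other genes, and among the rises 33.1% had a neighbouring rise, against 25.3%. Whether neighbours are near-identical copies that share reads was not tested, so the level of a single member of a run is uncertain.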

How the data were processed

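Poly(A) RNA was sequenced on an Illumina HiSeq instrument with paired reads, per the labels' protocols. The authors deposited 1 table of RPKM per gene and library. The aligner, counting tool, genome build, annotation and use of strand in counting are not given here by any source used. Each column matched a sample (0 did not). None of the 31426 IDs matched the reference table of the assembly UCD10Xv1.1 (0 matches), so no sequence is shown.

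Read totals were recovered from the steps between values, with gene lengths sought among multiples of 3. All totals came out whole within 0.01 reads, and a simulated table gave back its totals.

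A gene entered the test if 2 of the 4 libraries held 1 RPKM of it. Version 3.58.1 of limma (lmFit, eBayes with trend), under R 4.3.3, was run on log2(RPKM + 1), which understates the change of low genes. The fit was also run on simulated data. Two-sided p-values were adjusted over all genes tested by the Benjamini-Hochberg method, with calls under 0.05. Depth in the 4 libraries sets a floor of 3 reads, given with the report. No replicate numbers pair the arms.

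Named genes are the 2 largest calls in each direction whose arms did not overlap and whose higher arm averaged 10 RPKM or more, the 2 with the highest mean among genes on in 1 arm only, and the 2 largest differences within each arm. The comparison, the classes and the rules were chosen with earlier results of these data known. Alternatives were another pseudocount, no filter, other scaling, no trend, a spread from more stages, more fruit stages, and leaving out each library.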

Additional observations from a re-analysis of the deposited data

How the results depend on the processing

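No paired analysis was possible because the labels give the 4 stages no replicate numbers. Depth limits genes near the floor of 3 reads, and 1 library per stage limits every call. Median-of-ratios scaling gave 3416 calls with 913 rises, all of 2-fold or more, and the rises of the root, stem, leaf, no vegetative, expanding, ripening and chiltepin flower classes became 50, 18, 20, 51, 254, 24 and 0. Under it genes without overlap numbered 6487 higher and 7135 lower, and 283 higher by 4-fold. The cause of these shifts was not tested. Without the filter on low values 3153 genes rose, 3085 of them by 2-fold. A pseudocount of 0.1 gave 1183 genes 4-fold higher in the open flower, 1185 in the bud, 454 at 1 to 3 cm and 272 at 0 to 1 cm.

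Leaving out 1 library and keeping the genes tested gave 0 to 5655 calls, with 0 to 3592 rises (0 to 3563 of 2-fold) and 0 to 2063 falls (0 to 2057 of 2-fold). The lone library of an arm was assumed to vary like the other arm. The remaining alternatives were chosen after seeing the data. Applying the filter to the 3 libraries left gave 6793 and 8363 calls without the bud and the open flower, 1062 without fruit of 1 to 3 cm (178 of them rises) and 928 without fruit of 0 to 1 cm (125 of them rises), so most calls left were falls when a fruit library was missing. With the spread from 9 libraries, leaving out fruit of 1 to 3 cm gave 3135 rises (3130 of 2-fold), and leaving out fruit of 0 to 1 cm gave 4286 calls with 2665 rises (2660 of 2-fold). That spread with scaling gave 2015 rises and 3691 falls, of which 1862 and 3532 were of 2-fold. Scaling to the total without the genes on in 1 arm gave 3843 calls with 1580 rises, all of 2-fold. Genes on in young fruit and off in flowers numbered 6 with an upper limit of 0.2 RPKM and 48 with one of 1 RPKM. They numbered 54 with a lower limit of 5 RPKM and 7 after scaling. Over all counts and alternatives 76 values stayed within 1.5 times of the reported count and 56 did not. For the named genes 142 values kept their call or their size, 19 lost a call, 7 gained one and 16 differences between single libraries changed in size. No direction of a named gene turned.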

Other observations

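A few falls held most of the RNA that the falls as a whole had in mature green fruit. The 2097 falls held 1.31% and 1.56% of the summed RPKM of the young fruit libraries, but 41.2% of that of mature green fruit and 40.4% of that of breaker fruit, close to the 41.1% and 41.8% of bud and open flower. In the flowers 694 and 629 genes carried 90% of this share, whereas in mature green fruit 10 genes did, and without them it was 3.18%. These 10 genes were at 1.29 to 26.5 RPKM in the flower libraries, at 0 to 2.08 RPKM in young fruit and at 11806 to 70865 RPKM at mature green. Root held 0.449 to 4.53 RPKM of them, and stem 0.300 RPKM or less. In mature green fruit of the 8 other C. annuum lines these genes ranged from 0.328 to 28679 RPKM. Chiltepin flowers held 2.47 RPKM or less of them and chiltepin breaker fruit 0.396 RPKM or less. The highest in mature green fruit of Zunla 1, Capana01g000309, was at 4.62 RPKM in the bud, 3.53 RPKM in the open flower, listed at 0 in fruit of 0 to 1 cm, at 0.332 RPKM in fruit of 1 to 3 cm, and at 70865 RPKM at mature green (limma adjusted p of the fall 0.0166). Several barcoded libraries shared a sequencing lane, per the text on the series, and whether reads of libraries with very high levels entered the low flower values of these genes was not tested.

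Among the 565 flower genes, 1 gene carried nearly all of their share in ripening fruit. Capana06g000615 was at 16.2 RPKM in the bud, 26.4 RPKM in the open flower and listed at 0 in both young fruit libraries, and reached 13285 RPKM at 3 days after breaker. That is 1.30% of the summed RPKM of that library, where all 565 genes together held 1.34%. The limit on low flower values given for the 10 genes holds for it too. The genes named here were picked after their values were seen.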
